A study of Mus musculus with 4 samples.

Results

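The regions described here are the accessible chromatin at 9 genes that govern how T cells adhere and leave the thymus: the integrin chains Itgae, Itgal, Itga4, Itgb7, Itgb2 and Itgb1, the egress genes S1pr1 and Klf2, and the selectin ligand Selplg. They were measured in immature γδ thymocytes of fetal mice with and without c-Maf, a transcription factor of the basic leucine zipper family. Peaks of 4 libraries were merged wherever they overlapped by 1 bp or more on chromosomes 1 to 19 and X. A region belonged to a gene when that gene's body was the nearest protein-coding body and lay within 100 kb. The 9 genes took 156 of 171490 regions, and 87 of these were called in all 4 libraries, against 78650 regions in all.

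Integrins are pairs of an α and a β chain. The αE chain (Itgae) joins β7 (Itgb7) to bind E-cadherin on epithelium, α4 (Itga4) joins β7 or β1 (Itgb1) to bind MAdCAM or VCAM, and αL (Itgal) joins β2 (Itgb2) to form LFA-1, which binds ICAMs. S1pr1 encodes the receptor by which thymocytes follow sphingosine-1-phosphate out of the thymus, Klf2 encodes a zinc finger factor that turns on S1pr1 in maturing thymocytes, and Selplg encodes PSGL-1, which binds P-selectin.

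The KO libraries came from Maf fl/fl Il7rCre fetuses and the WT libraries from Maf+/+ Il7rCre fetuses, with 2 libraries each, numbered 1 and 2. Both genotypes thus carried Cre driven by Il7r, which acts in lymphoid precursors, and differed in the floxed Maf allele. Per the labels, fetuses of embryonic day 17 to 18, backcrossed to C57Bl/6 for 5 generations, were pooled, and 15000 to 17000 cells (CD4- CD8- TCRgd+ CD3e+ CD24+ CD45RBlo) were sorted per library. Omni-ATAC-seq, which uses the transposase Tn5 to tag open chromatin, was then run with 9 to 11 PCR cycles. No label says that the libraries of a genotype are from separate litters, so the spread between libraries may be technical. In bulk libraries, a smaller share of open cells and less openness per cell cannot be told apart.

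Promoter sequences were printed for the 4 genes with a window in the RefSeq table (build GRCm38.p6). Each window lay in a region called in all 4 libraries, except that of Itgb7, of which 188 of 250 bases did. Each line gives the 250 bases before the gene start annotated with that window, 5′ to 3′ on the gene's strand. For Itgb7 that start, at 102231935, lies inside the gene body used here, which ends at 102233405. Capitals mark matches to CACCC or its reverse complement GGGTG, the letters bound by KLF-family factors, and in Itga4 also the RUNX letters TGTGGT, found as ACCACA.
Itga4 (chr2:79255176-79255425, plus strand): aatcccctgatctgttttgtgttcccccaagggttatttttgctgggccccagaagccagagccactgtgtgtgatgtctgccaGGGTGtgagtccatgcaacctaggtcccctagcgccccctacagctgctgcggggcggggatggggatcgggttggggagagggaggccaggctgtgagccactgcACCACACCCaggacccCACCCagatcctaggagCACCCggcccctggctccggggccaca
Itgb7 (chr15:102231936-102232185, minus strand): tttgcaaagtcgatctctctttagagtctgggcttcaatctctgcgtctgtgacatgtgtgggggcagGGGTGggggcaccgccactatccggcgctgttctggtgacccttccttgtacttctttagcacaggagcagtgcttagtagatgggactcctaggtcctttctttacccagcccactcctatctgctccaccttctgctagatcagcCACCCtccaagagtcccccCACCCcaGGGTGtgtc
Itgb1 (chr8:128685404-128685653, plus strand): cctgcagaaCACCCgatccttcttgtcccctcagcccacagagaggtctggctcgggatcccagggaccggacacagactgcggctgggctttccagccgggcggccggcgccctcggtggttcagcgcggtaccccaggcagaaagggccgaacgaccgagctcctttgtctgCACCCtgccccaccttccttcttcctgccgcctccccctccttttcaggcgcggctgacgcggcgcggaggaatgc
Klf2 (chr8:72318812-72319061, plus strand): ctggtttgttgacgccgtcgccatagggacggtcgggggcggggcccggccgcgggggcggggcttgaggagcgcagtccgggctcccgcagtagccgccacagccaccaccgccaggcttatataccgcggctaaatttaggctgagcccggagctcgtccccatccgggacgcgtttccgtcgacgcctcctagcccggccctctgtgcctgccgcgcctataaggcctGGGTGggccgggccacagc

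The KLF letters occurred 4 times in the Itga4 window, 4 times in the Itgb7 window, 2 times in the Itgb1 window and 1 time in the Klf2 window. Of all 21044 windows of this length, 54.4% held them at least 1 time. The RUNX letters overlapped a KLF match in Itga4 and occurred in 12.2% of all windows. Searches of both strands found none of the MAF letters TGCTGAC (3.57% of all windows), AP-1 letters TGACTCA (4.09%), FOXO letters TGTTTAC (2.64%), TCF1/LEF1 letters CTTTGA (12.8%), ETS letters CCGGAAG (9.07%) or GATA letters AGATAA (8.84%) in these 4 windows. The MAF and AP-1 letters can overlap each other, and a match describes letters, not binding. Guanine and cytosine made up 64.0% of the Itga4 window, 56.0% of Itgb7, 68.0% of Itgb1 and 71.2% of Klf2, against a median of 55.6% over all windows.

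The libraries held 130935 (KO 1) and 120141 (KO 2) peaks, against 102718 (WT 1) and 132179 (WT 2) peaks. The caller's background pileup, solved from the deposited fold and p of the peaks, was 0.877 and 0.758 in KO, against 1.57 and 1.38 in WT, with both KO libraries below both WT libraries in this measure of depth. Its part in the results below was not tested. A peak inside the Maf gene body was present in both WT libraries, starting at 115705864 in WT 1 and at 115705837 in WT 2 on chromosome 8, while no KO peak covered that position. A weaker peak in the body stood at a −log10 q of 3.17 and 3.06 in KO, against 1.02 in WT 1 and no peak in WT 2. A peak stood within 1 kb of a gene end at 12 of 12 T cell identity genes and at 7 of 8 αβ thymocyte genes in every library. Of 8 B cell genes, 5 and 5 had such a peak in KO, against 4 and 5 in WT. Of 8 myeloid genes it was 3 and 2 in KO, against 1 and 3 in WT, of 6 erythroid genes 4 and 3 in KO, against 3 and 3 in WT, and of 10 stromal genes 5 and 6 in each genotype.

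Accessibility at the 9 genes was present in both genotypes, and the amount called did not separate them. KO 1 and KO 2 had 126 and 123 peaks at these genes, against 112 and 131 in WT 1 and WT 2. The means were 124.5 ± 2.12 peaks in KO and 121.5 ± 13.4 in WT (SD, n = 2 each), with an exact 2-sided permutation p of 1.00. These peaks were 0.0962% and 0.102% of all KO peaks, against 0.109% and 0.0991% of all WT peaks (exact permutation p = 0.667). They covered 28.3 and 29.9 kb in KO, against 24.8 and 32.4 kb in WT (exact permutation p = 1.00). The smallest p that 2 libraries against 2 allow is 0.333, so no such test can pass 0.05.

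Of the 156 regions, 130 were called in at least 2 libraries (consensus regions), and 87 of these, 66.9%, in all 4 libraries, against 64.2% over the genome. KO-only regions, called in both KO libraries and neither WT library, numbered 7 (5.38% of consensus regions, against 4.34% of all consensus regions). WT-only regions, the reverse, numbered 6 (4.62%, against 2.89%). Requiring a −log10 q of 5 in both libraries left 2 KO-only regions (0.872% over the genome) and 3 WT-only regions (0.749% over the genome). Without WT 2, which has the most peaks, 15 regions (13.4%) were KO-only, against 17.1% of all consensus regions. Without WT 1, which has the fewest, 15 (12.2%) were WT-only, against 17.5%. In both cases the share at the 9 genes lay below that over the genome. It also lay below for KO-only regions without KO 1 (10.1%, against 13.3%) or KO 2 (14.0%, against 20.5%), and for WT-only regions without WT 2 (8.04%, against 8.41%). It lay above for KO-only regions without WT 1 (8.13%, against 5.89%), and for WT-only regions without KO 1 (8.40%, against 6.11%) or KO 2 (7.02%, against 6.20%). Other regions in only some libraries crossed the genotypes: 8 were called in KO 2 and WT 2 alone and 8 in every library but WT 1. These 2 patterns were not counted over the genome. A single library called 26 of the 156 regions, and at least 2 libraries called 130. Over the genome, at least 2 libraries called 122507 of 171490 regions.

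**Figure D1:**
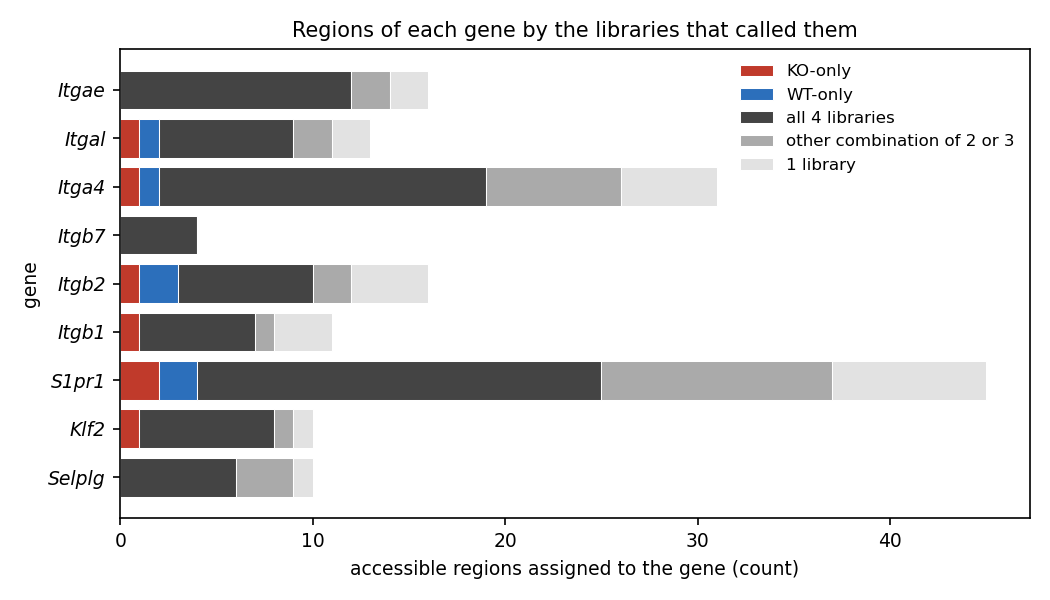
Number of accessible regions assigned to each gene (horizontal axis, count), split by the libraries that called them: KO-only, WT-only, all 4 libraries, another combination of 2 or 3 libraries, or 1 library. S1pr1 has the most regions with 45, and Itgb7 has 4, all called in every library.

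Regions called in 1 genotype alone ranked low and were narrow, as were other regions missing from some libraries. The 7 KO-only regions had a median percentile of 12.2 among all peaks of their library by fold enrichment and a median width of 134 bp. The 6 WT-only regions had a median percentile of 35.6 and a median width of 175 bp. Regions called in all 4 libraries stood at a median percentile of 69.1 and were 292 bp wide.

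To compare the height of the 87 shared regions, each was ranked by its fold enrichment (the authors' ratio of the summit to local background) among the same 78650 regions in each library. The percentile runs from 0 for the lowest to 100 for the highest. A region counted as lower or higher in KO when both KO percentiles lay beyond both WT percentiles and the means differed by at least 10 points. By this rule 13 regions (14.9%) ranked lower in KO, against 11.0% of all shared regions, and 8 (9.20%) ranked higher, against 11.2%. The median KO minus WT difference was −1.16 points, against −0.0456 over all shared regions. Libraries of 1 genotype differed by a median of 6.46 points in KO and 7.96 in WT at these regions, against 6.51 and 8.22 over all shared regions. The genotype means differed by a median of 6.64 points, against 5.73 over all shared regions. A mean of 2 libraries varies less than a single library, so the 2 kinds of difference are not on 1 scale. Without WT 2, 28 regions (31.1%) ranked lower in KO and 9 (10%) higher, against 20.7% and 20% of all shared regions. Without WT 1, 23 (24.2%) ranked lower and 19 (20%) higher, against 15.7% and 16.0%. Ranked among all peaks of each library instead, 8 regions (9.20%) were lower and 9 (10.3%) higher in KO, against 7.01% and 11.9% of all shared regions, whose median difference moved to 1.22 points. Of the 21 regions called by rank, 9 kept a difference of at least 10 points under each alternative that gave a value: both at Itgb2, 1 each at Itgae and Itgb1, 3 at S1pr1 and 2 at Klf2. A region that was no longer shared or in the set gave no value, so it could not fail there. These regions had 8 (Itgb1) to 12 values each. The nearer distance, the replicate block and dropping the Haspin regions reuse the same percentiles, so under them a difference cannot change.

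**Figure D2:**
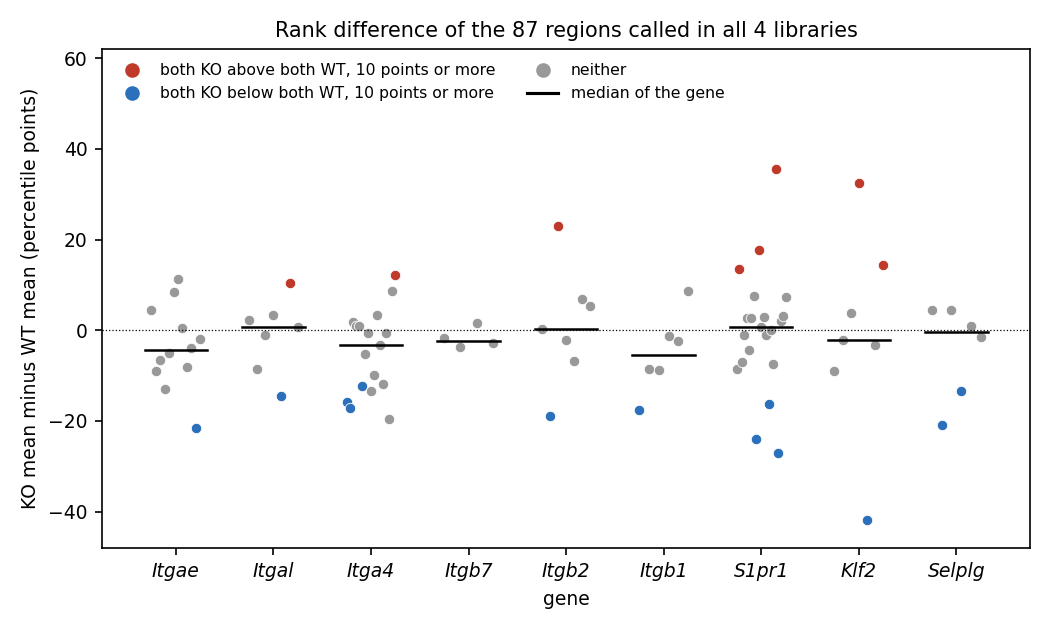
Difference in percentile (KO mean minus WT mean, in points) of each of the 87 regions called in all 4 libraries, by gene; bars mark the median of the gene. Coloured points are regions whose KO percentiles both lie beyond both WT percentiles by means 10 points or more apart, and the extremes are at Klf2 (−41.9) and S1pr1 (35.5).

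Peak width was the summed bp of a library's peaks in a region. Narrower in KO by the same non-overlap rule and a mean ratio of at least 1.5 was 1 region (1.15%, against 2.14% of all shared regions), and 2 were wider (2.30%, against 3.52%). The median log2 ratio of KO to WT width was 0.03 both at these genes and over all shared regions. Of the 8 regions that ranked higher in KO, 5 were also wider in both KO libraries than in both WT libraries, and of the 13 that ranked lower, 2 were narrower and 2 were wider. With no minimum ratio, 17.2% of all shared regions were wider and 12.5% narrower in this way. The share among all regions that ranked higher or lower was not counted. Peaks of all 4 libraries shared at least 1 bp in 85 of the 87 regions, and their summits lay a median of 41.0 bp apart.

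Every gene had a region within 1.5 kb of a gene end that was called in all 4 libraries. Of the 17 consensus regions there, 2 were KO-only, at Itgb2 and Klf2, and 1 was WT-only, at S1pr1. Of all consensus regions at any position, 4.34% were KO-only and 2.89% WT-only. Of the 13 shared regions there, 0 ranked lower in KO and 0 ranked higher by the rule, against 11.0% and 11.2% of all shared regions at any position. Their differences were −11.9 to 5.26 points. The difference of 5.26 points was past the end of Itgb2, at chr10:77566731-77566951, where both KO values, 86.2 and 85.4, lay above both WT values, 81.2 and 79.9, by less than the 10 points asked. The highest ranked end region of Itgb2 stood at percentiles 95.7 and 91.2 in KO, against 92.8 and 93.7 in WT. That of Itgal stood at 93.2 and 91.9 in KO, against 95.0 and 92.4 in WT. Itga4, at its printed promoter, stood at 89.0 and 87.9 in KO, against 94.4 and 88.7 in WT. Those 3 gene ends ranked high in every library, and KO and WT values overlapped.

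S1pr1 was as high, at 90.9 and 88.6 in KO, against 92.8 and 81.1 in WT. The printed Klf2 promoter stood at 85.1 and 82.0 in KO, against 92.2 and 81.3 in WT, and that of Itgb7 at 81.0 and 76.7, against 85.7 and 77.7. Lower in rank were Selplg, with 61.8 and 66.2 in KO against 80.5 and 50.4 in WT, and Itgb1, with 51.2 and 55.5 in KO against 59.9 and 49.2 in WT. The end of Itgae, the αE chain, ranked lowest, at 21.5 and 27.6 in KO, against 22.5 and 17.8 in WT. KO and WT values overlapped at each of these 6 genes.

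**Figure D3:**
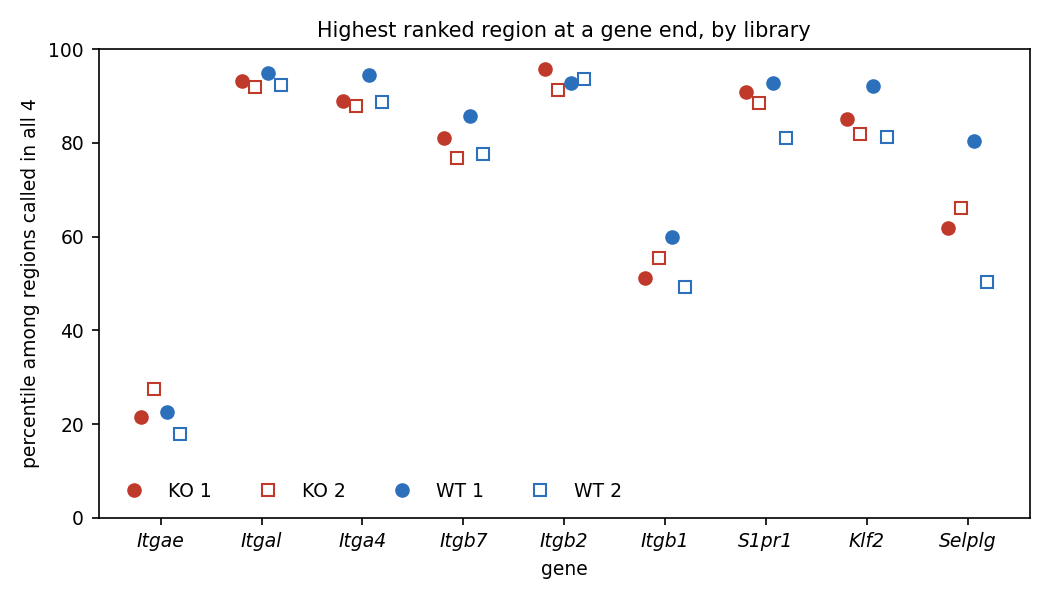
Percentile of the highest ranked region within 1.5 kb of a gene end (vertical axis, among regions called in all 4 libraries) in KO 1, KO 2, WT 1 and WT 2. KO and WT points overlap at every gene, from Itgae near 20 to Itgb2 above 90.

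Itgae (chr11:73090505-73147449) held 16 regions, 14 of them in the gene body, and none was KO-only or WT-only. Of the 12 shared regions, 1 ranked lower in KO and 0 higher, and the median difference was −4.42 points. The lower region, chr11:73137638-73137786, stood at 6.83 and 27.0 in KO, against 38.2 and 38.8 in WT, a difference of −21.6 points. A difference as low was seen at 3.24% of all shared regions, and without KO 1 the difference was −11.0. This region is 1 of 3 that also lie in Haspin, a kinase gene inside Itgae, so its nearest gene cannot be told apart. The tallest regions of Itgae ranked high in both genotypes. At chr11:73138203-73138541 the percentiles were 86.7 and 88.1 in KO, against 88.8 and 89.9 in WT (−1.95 points). At chr11:73131038-73131344 they were 83.9 and 83.9 in KO, against 88.0 and 96.2 in WT (−8.18 points). In both regions the KO values lay below the WT values, by less than the rule asks. At chr11:73108182-73108505 the genotypes overlapped, with 83.3 and 84.6 in KO, against 82.6 and 84.2 in WT.

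Itgb7 (chr15:102215994-102233405), the partner of αE and α4, had 4 regions, all in the gene body and all called in every library. Their differences ran from −3.70 to 1.52 points, and KO and WT overlapped at each. The tallest, chr15:102224545-102224900, stood at 89.4 and 86.6 in KO, against 91.9 and 87.7 in WT. No region of Itgb7 was called higher, lower, wider or narrower.

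Itga4 (chr2:79255426-79333114), the α4 chain, had 31 regions, 20 of them outside the gene body. Of 17 shared regions, 3 ranked lower in KO and 1 higher, with a median of −3.14 points. The lower regions lay before the gene start at 99.8, 82.2 and 19.1 kb. At chr2:79155482-79155648 the percentiles were 38.0 and 41.6 in KO, against 56.7 and 54.3 in WT (−15.8 points; −8.46 when ranked among all peaks). At chr2:79173004-79173227 they were 41.8 and 55.0 in KO, against 56.7 and 74.3 in WT (−17.1 points; −8.19 without WT 2 and −10.02 without KO 1). At chr2:79236186-79236328 they were 9.06 and 15.0 in KO, against 27.2 and 21.2 in WT (−12.2 points; −9.02 without KO 1 and −5.56 when calls need a −log10 q of 5). The higher region was in the gene body, chr2:79276265-79276909, at 83.5 and 89.9 in KO, against 76.3 and 72.9 in WT (12.1 points; 8.54 without KO 2). Differences this large or larger stood at 5.44% to 9.47% of all shared regions.

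The lowest difference at Itga4, at chr2:79265749-79265927 (−19.5 points), did not separate the genotypes, since KO had 18.1 and 5.63 and WT had 46.6 and 16.2. The KO-only region of Itga4, chr2:79172746-79172868, had folds of 5.86 and 6.63 and a −log10 q of 6.20 and 7.74 in KO. It lay next to the lower region at 82.2 kb. The WT-only region, chr2:79250105-79250230, lay 5.20 kb before the gene with folds of 5.07 and 5.86 and a −log10 q of 6.71 and 12.5 in WT.

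Itgb1 (chr8:128685654-128733579), the β1 partner of α4, had 11 regions and 6 shared ones, of which 1 ranked lower in KO and 0 higher. The lower region, chr8:128652847-128653232, lay 32.4 kb before the gene at 6.39 and 13.8 in KO, against 29.2 and 26.4 in WT (−17.7 points). The peaks of the 4 libraries did not share a base pair there, so these values may describe neighbouring sites. A KO-only region, chr8:128650396-128650529, had folds of 3.56 and 3.02 in KO. At the gene start, the region holding the printed promoter was 675 and 683 bp wide in KO, against 855 and 831 bp in WT, a mean ratio of 0.805, under the 1.5 times the rule asks.

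Itgal (chr7:127296139-127335137), the α chain of LFA-1, had 13 regions and 7 shared ones, with 1 lower and 1 higher in KO. In the gene body, chr7:127308974-127309112 stood at 49.8 and 59.4 in KO, against 67.5 and 70.7 in WT (−14.5 points; −9.22 without KO 1 and −7.38 when ranked among all peaks). Farther on, chr7:127319941-127320203 stood at 12.3 and 27.7 in KO, against 10.1 and 8.83 in WT (10.5 points; 19.5 without KO 1 and 3.33 without KO 2). It was also 1 of the 2 wider regions, with 212 and 241 bp in KO, against 94.0 and 180 bp in WT. A KO-only region in the body, chr7:127313774-127313918, had folds of 5.37 and 7.65 and a −log10 q of 5.44 and 10.3. The WT-only region, chr7:127286215-127286413, lay 9.73 kb before the gene and had the highest −log10 q of any region called in 1 genotype at the 9 genes, 9.30 and 19.6 in WT. The LFA-1 α chain thus had regions that differed in both directions.

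Itgb2 (chr10:77530329-77565708), the β2 chain, had 16 regions and 7 shared ones. Neighbouring regions in its body differed in opposite directions. The first, chr10:77536826-77537085, stood at 7.58 and 10 in KO, against 26.6 and 29.0 in WT (−19.0 points). Only 0.233 kb on, chr10:77537319-77537531 stood at 72.3 and 74.4 in KO, against 38.9 and 61.7 in WT (23.1 points; 10.02 without WT 1). Its folds were 14.9 and 17.6 in KO, against 6.20 and 13.0 in WT.

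Itgb2 had 1 KO-only region in the body, at chr10:77531736-77531833, with folds of 3.15 and 3.31 in KO. Its 2 WT-only regions lay farther along. In the body, chr10:77554996-77555230 had folds of 4.67 and 3.91 in WT, and 6.63 kb past the gene, chr10:77572343-77572487 had folds of 5.06 and 5.89 in WT and a −log10 q of 5.44 and 7.24.

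S1pr1 (chr3:115710433-115715055), the egress receptor, is a short gene with 45 regions, 42 of them outside its body. Of 37 consensus regions, 2 were KO-only and 2 WT-only, and of 21 shared regions, 3 ranked lower and 3 higher in KO. The median difference was 0.762 points.

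The widest gap upward among the 9 genes was at chr3:115758460-115758704, 43.4 kb from the gene on the side of higher coordinates. Its percentiles were 49.8 and 32.0 in KO, against 2.91 and 7.95 in WT, with folds of 9.70 and 8.26 in KO, against 3.49 and 4.65 in WT. The difference of 35.5 points was matched or passed upward by 0.409% of all shared regions. The region 4.43 kb farther on, chr3:115763132-115763578, differed the other way. It stood at 57.2 and 64.5 in KO, against 88.6 and 87.3 in WT (−27.1 points, as low in 1.71% of shared regions), with folds of 11.1 and 14.5 in KO, against 17.8 and 22.8 in WT. Its peaks were 401 and 334 bp wide in KO, against 442 and 432 bp in WT. When ranked among all peaks of a library the difference was −16.6 points.

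On the same side and nearer the gene, at 14.1 kb, chr3:115729121-115729733 stood at 56.1 and 54.8 in KO, against 68.1 and 75.4 in WT (−16.3 points; −8.57 when ranked among all peaks). On the other side, chr3:115693489-115693747, at 16.7 kb, stood at 18.7 and 20.3 in KO, against 47.6 and 39.1 in WT (−23.9 points). Higher in KO on that side were chr3:115702188-115702336, at 8.10 kb, with 50.7 and 35.2 in KO, against 34.4 and 16.2 in WT (17.7 points), and chr3:115642001-115642443, at 68.0 kb, with 79.4 and 70.0 in KO, against 66.6 and 55.6 in WT (13.6 points). Without WT 2 these differences were 8.37 and 7.97 points, and without KO 1 they were 10.4 and 8.68; without WT 1 the nearer was 26.8. Regions of both directions thus stood on both sides of S1pr1.

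The only region narrower in KO by the rule was chr3:115704351-115705032, 5.40 kb from S1pr1, with 447 and 244 bp in KO, against 555 and 682 bp in WT. Its rank did not differ, at 33.0 and 26.5 in KO, against 32.3 and 25.7 in WT. The WT-only region nearest to the gene, chr3:115715475-115715676, lay 0.420 kb away, and its −log10 q was 4.57 and 18.9 in WT. The other WT-only region, chr3:115690092-115690242, was weaker (−log10 q of 2.91 and 2.17 in WT). The KO-only regions, chr3:115706854-115707019 and chr3:115730766-115730897, had a −log10 q of 3.39 and 5.69, and of 3.49 and 3.37, in KO.

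**Figure D4:**
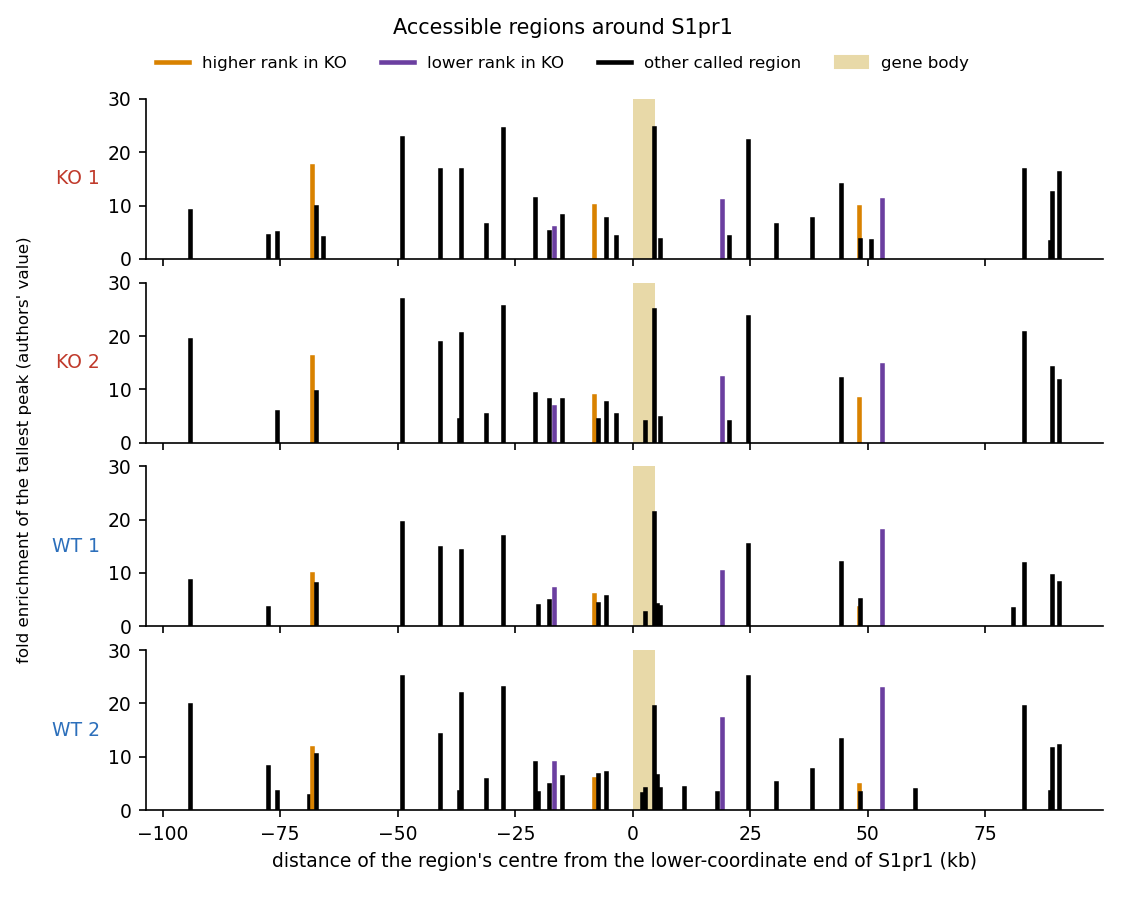
Accessible regions around S1pr1 in KO 1, KO 2, WT 1 and WT 2 (rows); horizontal axis, distance in kb of the region's centre from the lower-coordinate end of the gene; vertical axis, fold enrichment of the tallest peak, the authors' value. Orange and purple bars mark the 3 regions higher and the 3 lower in rank in KO, and the shaded band is the gene body.

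Klf2 (chr8:72319062-72321654), which encodes the factor upstream of S1pr1, had 10 regions and the widest gap downward among the 9 genes. At chr8:72312809-72313212, 5.85 kb before the gene start, the percentiles were 39.5 and 24.0 in KO, against 79.3 and 67.9 in WT. Folds were 8.18 and 7.18 in KO, against 13.3 and 14.6 in WT, and the −log10 q was 16.6 and 13.4 in KO, against 37.7 and 64.1 in WT. The difference of −41.9 points was matched or passed downward by 0.374% of all shared regions. Over 12 other settings or left-out libraries it stayed between −48.1 and −28.6 points. Of these, the nearer distance, the replicate block and dropping the Haspin regions give −41.9 by construction.

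The next region upstream, chr8:72309816-72310037, 9.03 kb before the start, ranked higher in KO. It stood at 51.5 and 40.5 in KO, against 17.5 and 9.26 in WT (32.6 points, as high in 0.701% of shared regions). Folds were 10.1 and 9.54 in KO, against 4.57 and 4.90 in WT, and peaks were 191 and 208 bp wide in KO, against 107 and 172 bp in WT. The gap between these regions was 2.77 kb. Over 11 other settings or left-out libraries the difference stayed between 27.7 and 38.6 points, and the same settings as above give 32.6 by construction.

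Past the gene, chr8:72330882-72331079 stood at 31.5 and 19.1 in KO, against 10.2 and 11.7 in WT (14.4 points; 9.12 without KO 1). The other region wider in KO was also at Klf2, chr8:72303557-72304041, with 475 and 479 bp in KO, against 187 and 381 bp in WT. A weak KO-only region in the body, chr8:72320309-72320446, had folds of 2.87 and 2.10 in KO. The tallest regions of the locus overlapped between genotypes: chr8:72295622-72296114 stood at 93.1 and 86.3 in KO, against 94.7 and 88.9 in WT. By rank, the Klf2 locus thus differed outside the gene, on both sides of it, while its promoter did not separate the genotypes.

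**Figure D5:**
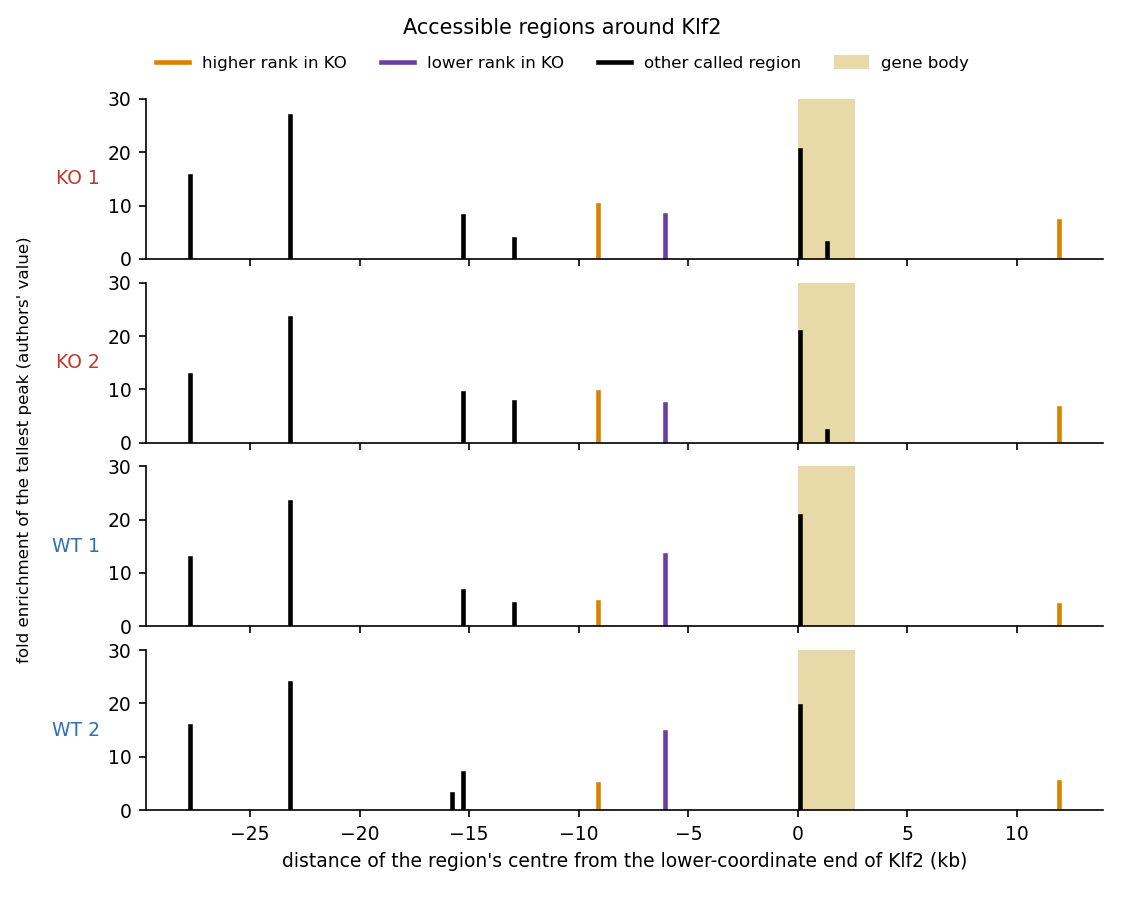
Accessible regions around Klf2 in KO 1, KO 2, WT 1 and WT 2 (rows); horizontal axis, distance in kb of the region's centre from the lower-coordinate end, which is the gene's start; vertical axis, fold enrichment of the tallest peak, the authors' value. The purple bar is lower and the orange bars are higher in rank in both KO libraries, and the tall bars at the gene start reach similar folds in all 4 rows.

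Selplg (chr5:113817798-113832528), which encodes PSGL-1, had 10 regions and 6 shared ones, of which 2 ranked lower in KO and 0 higher. At chr5:113815883-113816066, 1.73 kb from the gene, the percentiles were 25.5 and 54.5 in KO, against 60.2 and 61.5 in WT. The difference of −20.8 points was −6.03 without KO 1 and −34.4 without KO 2. In the body, chr5:113825669-113825850 stood at 6.49 and 19.7 in KO, against 27.4 and 25.5 in WT (−13.4 points; −6.53 without KO 1, −20.7 without KO 2 and −6.32 when calls need a −log10 q of 5), and was narrower in order, with 127 and 153 bp in KO, against 180 and 182 bp in WT. No region of Selplg was KO-only or WT-only.

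By position, the 42 shared regions in gene bodies included 4 lower and 3 higher in KO, the 22 within 20 kb of a body 5 lower and 3 higher, and the 23 from 20 to 100 kb 4 lower and 2 higher. Of all shared regions at any position, 11.0% were lower and 11.2% higher. These position classes were not counted over the genome, so the counts show no effect of position. At the distance limit, the farthest Itga4 region kept lay at 99.8 kb (−15.8 points) and the farthest S1pr1 region at 94.1 kb (−8.46 points). The nearest ones left out lay at 106.0 kb from Itga4, called in WT 2 alone, and at 106.2 kb from S1pr1, with −0.390 points. Regions beyond the limit whose nearest gene was 1 of the 9 numbered 20.

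Related genes were counted by the same rules. Over all regions, 4.34% of consensus regions were KO-only and 2.89% WT-only. Of all shared regions, 11.0% ranked lower in KO and 11.2% higher, with a median of −0.0456 points. At 15 other integrin subunit genes, 8 of 217 consensus regions (3.69%) were KO-only and 8 (3.69%) WT-only. Of 142 shared regions there, 22 (15.5%) ranked lower in KO and 13 (9.15%) higher, with a median of −0.175 points. Named by a −log10 q of 5 in both libraries were a WT-only region at Itga6 (−log10 q of 5.44 and 5.50) and a KO-only region at Itga9 (6.80 and 5.40). At any q, Itga6 had 0 KO-only and 3 WT-only regions of 29 consensus regions, and Itga9 had 3 and 5 of 55. The genes encode the α6 chain, which binds laminin, and the α9 chain.

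At 23 egress and homing genes, 13 of 325 consensus regions were KO-only and 12 WT-only, and of 242 shared regions 35 (14.5%) ranked lower and 25 (10.3%) higher, with a median of −1.71 points. WT-only regions stood in Foxo1, whose factor acts on Klf2 in T cells (−log10 q of 5.85 and 5.98), and 82.8 kb from Klf13 (6.95 and 5.48). Another stood in Il7r, the gene that drives Cre in both genotypes (7.20 and 21.8). At any q, KO-only and WT-only regions numbered 0 and 4 at Foxo1, 3 and 3 at Klf13, and 0 and 1 at Il7r. Gnai2, which encodes a G protein subunit that signals from S1P receptors, had a KO-only region (13.1 and 9.07).

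At 29 genes of integrin activation and adhesion, 10 of 392 consensus regions (2.55%, against 4.34% of all) were KO-only and 12 (3.06%, against 2.89%) WT-only. Of 265 shared regions there, 46 (17.4%, against 11.0%) ranked lower and 20 (7.55%, against 11.2%) higher, with a median of −1.07 points. Rasgrp1, an exchange factor downstream of the T cell receptor, had 2 WT-only regions, at a −log10 q of 12.4 and 48.5 for 1, and 18.1 and 48.8 for the other, in WT. Rap1b, a GTPase that activates LFA-1, also had 2 named WT-only regions, with 11.4 and 22.2 and with 8.58 and 19.3. They lay 79.2 and 13.8 kb from the gene. At any q, Rap1b had 2 KO-only and 3 WT-only regions of 41 consensus regions. KO-only were 2 regions of Dock8, an exchange factor of Cdc42 (9.60 and 5.77, and 9.00 and 5.94), and 1 of Rasgrp2, which activates Rap proteins (5.15 and 7.47).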

How the data were processed

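Peak lists of 4 Omni-ATAC-seq libraries were analysed, 2 of each genotype. The submitters' processing notes name MACS2 2.1.1, Bowtie2 2.3.4.1, deepTools 3.1.2, bedtools, Picard, cutadapt and Trim Galore, with the builds mm10 and GRCm38. Not given in the sources used here are their roles and settings, any shift of reads for the Tn5 cut and the handling of duplicates. Each library had its own list, so peaks had not been called on pooled reads. The deposited fold enrichment is the authors' ratio of a summit to the local background of that library. The −log10 q and −log10 p deposited for a summit are within-library values too, and every list ends at a q of 0.1. The deposited whole-number score was not used. The fold and the −log10 q served to rank, describe and filter the peaks of 1 list. Depth was described by the number of peaks and by the background pileup, solved under the caller's Poisson model, since no read totals were used here.

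Peaks were merged by code (Python 3.11.15, pandas 2.3.3) and assigned to RefSeq gene bodies of GRCm38 in a table without exons, so introns, exons and untranslated regions are not given. All 9 genes and all list genes matched the table. Positions are 1-based. Percentiles were taken among regions called in all 4 libraries, because ranks in lists of different lengths show no change. No region got a p-value, since 2 libraries against 2 cannot pass a threshold; counts were read beside the same count over all regions. The code that merges, assigns and classifies regions was checked on simulated peaks with known answers. The text gives every KO-only and WT-only region, the gene-end region and, for each gene, the shared region with the largest rank difference; the other regions called by rank, and the gene-end window of 1.5 kb, were chosen after their values were seen; list genes were named where a region of 1 genotype had a −log10 q of at least 5 in both libraries, and 1 such gene is not reported here. The genes, lists and rules were chosen with earlier results of these data known. Alternatives were a stricter q, a covered share of the region, equal numbers of peaks, a nearer distance, other ranks, sizes and widths, a replicate block and leaving out each library; leaving out the 3 regions shared with Haspin was added after seeing the data.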

Additional observations from a re-analysis of the deposited data

How the results depend on the processing

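The medians and the counts of WT-only regions moved little under other settings that keep all 4 libraries. The medians were −2.31 to −0.0943 points and 0.01 to 0.03 on the log2 width scale. WT-only regions numbered 4 to 6 (3.88% to 5.56%, against 2.25% to 4.06% of all consensus regions). Calls at a −log10 q of 5 or more gave 2 KO-only regions (1.94%, against 4.04% of all consensus regions). They gave 1 wider region (1.41%, against 2.06% of all shared regions). Requiring 0.5 of the region to be covered gave 3 regions higher in rank (4.05%, against 10.2%), 0 narrower and 0 wider (against 0.581% and 0.699%). Equal numbers of peaks (102718 a library) gave 3 KO-only regions (2.65%, against 3.88%). Percentiles among all peaks gave 8 lower regions (9.20%, against 7.01%). A minimum of 20 points gave 5 lower (5.75%, against 3.91%) and 3 higher (3.45%, against 4.22%). The widest peak gave 4 wider regions (4.60%, against 3.97%). No minimum ratio gave 10 narrower (11.5%, against 12.5%) and 16 wider (18.4%, against 17.2%). A ratio of 2 gave 0 narrower and 0 wider (against 0.439% and 0.601%). Fewer regions qualify by construction under stricter rules, and for the other settings the cause was not tested. Leaving out 1 library gave 10 to 16 KO-only, 8 to 15 WT-only, 19 to 28 lower and 8 to 19 higher regions. It gave 1 to 5 narrower and 1 to 12 wider regions, with medians of −4.09 to 0.493 points and −0.05 to 0.12 log2. Fewer libraries must then line up. Shares of KO-only and WT-only regions, and of ranks without a WT library, stand above. Without KO 1, 21.3% ranked lower and 8.99% higher, against 16.3% and 16.6% of all shared regions. Without KO 2, 20.9% ranked lower, against 16.9%, and 12.1% higher, again below the share of all shared regions. Narrower were 1.10% to 5.26%, against 1.95% to 7.77%, and wider 1.05% to 13.3%, against 3.27% to 16.6%. Differences with no call changed sign at the regions starting at Itgb7 102225239 (−13.4 to 5.35 points when 1 library is left out), Itgb7 102230837 (−7.49 to 9.36), Itgae 73107469 (−7.11 to 27.0) and Selplg 113824307 (−4.45 to 12.0). Dropping the 3 regions shared with Haspin changed no count by over 1.5 times.

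Libraries of both genotypes carry the replicate numbers 1 and 2, but no label says that a number marks a shared litter or day. Same-numbered libraries deviated together with a correlation of 0.116 over all 78650 shared regions and 0.432 over the 87 described here. With the replicate block there were 2 narrower (2.30%, against 2.57% of all shared regions) and 4 wider regions (4.60%, against 4.46%). There were 16 lower (18.4%, against 13.1%) and 9 higher (10.3%, against 13.2%). The 7 KO-only and 6 WT-only regions cannot change with the block, which asks for the same calls. Depth limits the low regions: a peak missing from a list means that it did not reach a q of 0.1 in that library, not that the site was closed.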

Other observations

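Neighbouring regions of opposite direction were counted after the Klf2 values were seen. Of 41 pairs of adjacent shared regions within 5 kb at the 9 genes, 3 (7.32%) had 1 region higher and 1 lower in rank in KO, and 0 had both in the same direction. Over all shared regions, 827 of 29314 such pairs (2.82%) were opposite and 609 (2.08%) were alike. The 3 pairs were those at Itgb2, 0.233 kb apart (−19.0 and 23.1 points), at S1pr1, 4.43 kb apart (35.5 and −27.1 points), and at Klf2, 2.77 kb apart (32.6 and −41.9 points).

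Among genes of other cell types, 3 of 26 consensus regions of myeloid genes were KO-only and 0 WT-only, 8 and 5 of 95 at stromal genes, 2 and 2 of 48 at B cell genes, 0 and 2 of 19 at erythroid genes and 2 and 1 of 56 at αβ thymocyte genes, against 4.34% and 2.89% of all consensus regions. With a −log10 q of at least 5 in both libraries, Mpo, a granule enzyme gene of myeloid cells, had a KO-only region in its body with a −log10 q of 6.20 and 5.77 in KO, and Cdh5, an endothelial cadherin gene, had 2 KO-only regions at 6.20 and 6.89 and at 8.43 and 6.89. Col1a1, a collagen gene of stromal cells, had a KO-only region in its body at 6.25 and 7.22. Pecam1, which encodes an endothelial and leukocyte adhesion molecule, had 1 KO-only region (8.43 and 14.1) and 2 WT-only regions (19.0 and 29.2, and 6.84 and 26.8). At the B cell gene Ebf1 a WT-only region had 9.28 and 23.5 in WT, and at Themis, an αβ thymocyte gene, a KO-only region had 9.60 and 15.7 in KO.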
